A study of Mus musculus with 4 samples.

Results

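A group of 10 genes of the synaptic vesicle and of neurotransmitter supply were followed in mouse P19 embryonal carcinoma cells that had been turned towards neural fates. They were chosen by name, with earlier results of these data known. Every probe set whose only annotated gene symbol was among them was kept. That gave 16 probe sets of 10 genes, out of 22626 probe sets and 12393 named genes in all. The GABA genes were Slc32a1 and Gad1 (4 probe sets), the glutamate gene was Slc17a6 (2), and the general vesicle genes were Snap25, Syt1, Syp, Sncg, Nsg1, Nsg2 and Scg3 (10).

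The control group was unmodified P19 cells and the other group was P19 cells that constitutively express human LIN28A, which binds RNA and keeps let-7 microRNA precursors from being matured. Cells of both groups were aggregated in 5e-07 M all-trans retinoic acid and had differentiated for 4 days, and there were 2 arrays per group, numbered 1 and 2. The labels do not say how LIN28A was delivered, whether the line is a single clone, or whether equal numbers mark a shared culture. Since no separate cultures are named for the repeats, the spread behind every p-value is that between arrays and may be technical.

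A neuron stores its transmitter in vesicles and releases it when the vesicle fuses with the cell membrane. Slc32a1 encodes the transporter that loads GABA and glycine into vesicles, Gad1 an enzyme that makes GABA from glutamate, and Slc17a6 a transporter that loads glutamate. Snap25 is a SNARE protein that pulls the vesicle and the cell membrane together, Syt1 is the calcium sensor that triggers fusion, and Syp (synaptophysin) is an abundant protein of the vesicle membrane. Sncg is gamma-synuclein, a small protein of neurons and their terminals. Nsg1 and Nsg2 are related membrane proteins of neuronal endosomes, and Scg3 is a granin that helps to form dense core granules. Which of these are made tells apart neurons that use GABA from those that use glutamate, while the vesicle machinery is shared by both.

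No member passed the test alone, yet most read lower in LIN28A cells within each replicate number. The clearest were Nsg2, at a log2 difference of -1.92 ± 0.37 (SE), and Sncg, at -1.86 ± 0.33 (SE, 2 arrays per group), with limma's Benjamini-Hochberg adjusted p = 1.0 for both. The brighter Slc32a1 probe set also read lower in both numbers, from a level that was low in control cells. Slc17a6 read lower in number 1 and higher in number 2.

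The promoters of Nsg2, Sncg and Slc32a1 are shown because these genes had the lowest mean log2 differences among the members with a promoter entry. The windows are from RefSeq on GRCm38.p6, 5′ to 3′ on the gene's strand, and hold the 250 bases before the annotated start. Capitals mark CAGCTG and CAGGTG, searched on both strands. These are forms of the E-box, a site that proneural basic helix-loop-helix factors bind. Other forms of it, such as CAGATG, were not searched and stay in small letters.
Nsg2, chr11:32000169-32000418, + strand: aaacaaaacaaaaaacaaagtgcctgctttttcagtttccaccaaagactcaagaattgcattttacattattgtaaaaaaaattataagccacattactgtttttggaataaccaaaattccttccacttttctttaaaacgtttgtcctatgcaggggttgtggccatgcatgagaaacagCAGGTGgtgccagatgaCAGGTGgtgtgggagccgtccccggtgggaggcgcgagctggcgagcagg
Sncg, chr14:34374670-34374919, - strand: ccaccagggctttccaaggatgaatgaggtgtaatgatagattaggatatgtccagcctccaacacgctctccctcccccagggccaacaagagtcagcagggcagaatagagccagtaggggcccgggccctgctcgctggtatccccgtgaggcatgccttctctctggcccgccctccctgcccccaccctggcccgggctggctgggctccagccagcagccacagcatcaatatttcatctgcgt
Slc32a1, chr2:158610508-158610757, + strand: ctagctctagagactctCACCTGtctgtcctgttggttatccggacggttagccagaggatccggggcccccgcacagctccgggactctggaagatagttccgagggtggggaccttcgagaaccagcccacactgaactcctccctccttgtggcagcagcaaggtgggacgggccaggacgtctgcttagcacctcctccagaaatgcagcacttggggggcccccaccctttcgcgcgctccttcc

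Promoter windows of 300 bases (250 before and 50 after the start) were given for 8 of the 10 genes, in 11 windows; Snap25 and Nsg1 had no entry. CAGGTG was found in 3 of the 11 windows, of Slc32a1, Gad1 and Nsg2, and in 20.2% of all 32851 windows. Counted from its first base, in Nsg2 it stood 67 and 50 bases before the start, and in Slc32a1 233 bases before it. CAGCTG was found in 2 of the 11 windows (of Syt1 and of Nsg2, there after the start) and in 16.3% of all windows. TTCAGCACC, the left part of the RE1 element that the neuronal gene repressor REST binds, was found in 1 window of a member, the second of Nsg2, and in 0.371% of all windows; with its flanks it reads ctgcttttTTCAGCACCacgctctg, 201 bases before that second start. The right part, GGACAGNGC, was in no window of a member and in 1.91% of all, and the cyclic AMP response element TGACGTCA was likewise in none and in 1.79% of all. GGGCGG, the GC box, was in 5 of the 11 windows, of 5 genes, and in 35.7% of all. TATAAA was in 1, of Gad1, and in 13.6% of all. These are matches of letters, and no binding was measured.

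Values are the authors' deposited intensities, linear and in arbitrary units, and differences are on the scale of log2(intensity + 16). The pseudocount of 16 damps the differences of dim probe sets. Between 35.8% (control 1) and 42.3% (LIN28A 1) of the probe sets of an array lay under 16. The median intensity was 35.8 in control 1 and 29 in LIN28A 1, and 38.6 in control 2 and 36.7 in LIN28A 2. Detection calls were not used here, so a dim value cannot be told from background. Tests left out probe sets with a mean log2 value under the 30th percentile, about 8.04 in linear units. Of the members, 10 probe sets of 9 genes were tested and 6 probe sets were not. The leading Slc32a1 and Syt1 probe sets and the dimmer Nsg1 probe set passed only through the control arrays, since their LIN28A mean lay under the limit. Both Gad1 probe sets fell under this limit, so Gad1 has values and no test.

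Arrays of one number were more alike than arrays of one line. Pearson's r across probe sets was 0.97 between lines within each number and 0.93 to 0.94 within each line; probe sets are not independent replicates. The 18S ribosomal RNA probe set that covers the middle of the transcript read 677 and 136 in control 1 and LIN28A 1 but 9.20 and 11.3 in control 2 and LIN28A 2. The number difference reached the members too. Of the 10 leading probe sets (the brightest of each gene), 7 were higher in number 2 than in number 1 in both lines. The same held for 41% of all 15838 probe sets tested. The sets are unlike, since the 7 include Gad1, which was not tested, and the 41% counts every tested probe set of a gene. Because of the number difference, the differences within a number are given for every member, and the part of the number in each was not tested.

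**Figure D1:**
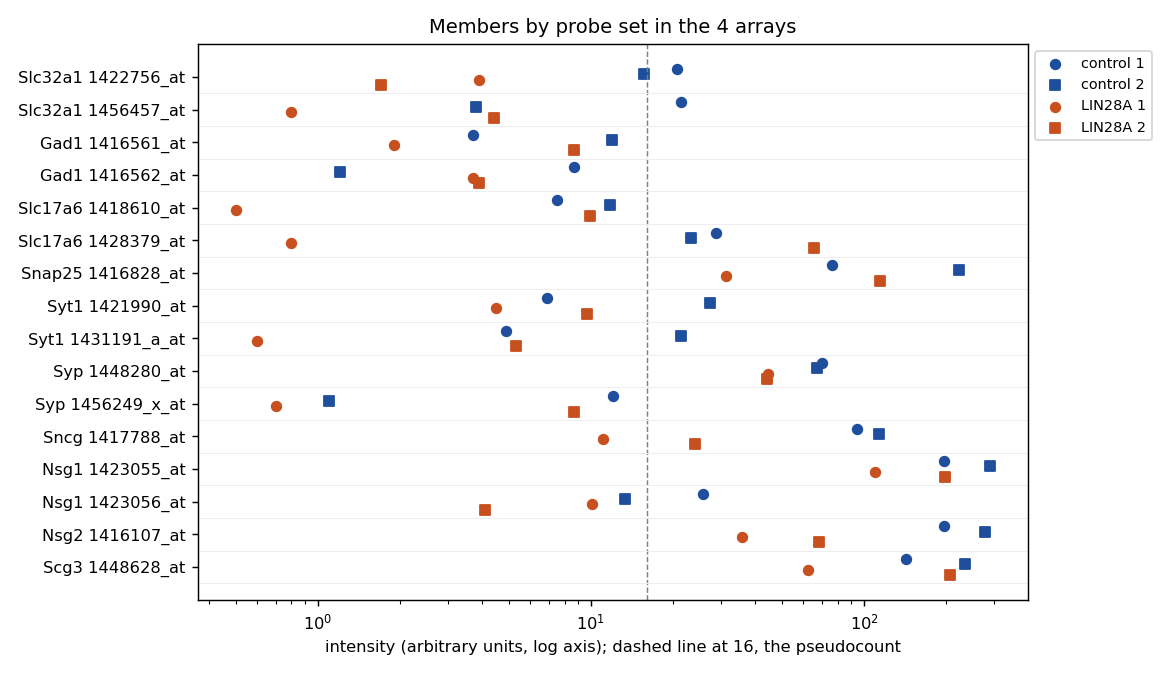
Intensity of each of the 16 member probe sets (rows) in the 4 arrays, on a log axis in arbitrary units; blue marks control, orange LIN28A, circles number 1 and squares number 2, and the dashed line stands at 16. The orange marks of Nsg2 and Sncg lie left of both blue marks, while all marks of both Gad1 probe sets lie left of the line.

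Of the genes that set the transmitter, Slc32a1 read lower in both numbers at its brighter probe set. That probe set read 20.7 and 15.7 in control 1 and 2 and 3.90 and 1.70 in LIN28A 1 and 2. Both LIN28A arrays lay below both control arrays, but only control 1 lay above 16. The log2 difference was -0.88 in number 1 and -0.84 in number 2, or -0.86 ± 0.29 (SE, 2 arrays per group; limma adjusted p = 1.0). In rank, the probe set lay at the 40.8th and 39.2nd percentile of all probe sets in the control arrays and at the 21.2nd and 13.9th in the LIN28A arrays. Its size depends on the pseudocount, at -2.39 with a pseudocount of 1 and -0.30 with 64.

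The dimmer Slc32a1 probe set did not repeat this in number 2. It read 21.4 and 3.80 in control 1 and 2 and 0.800 and 4.4 in LIN28A 1 and 2. Only control 1 stood apart, and the difference was -1.15 in number 1 and 0.04 in number 2.

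Gad1 was dim in every array. Its leading probe set read 3.70 and 11.9 in control, against 1.90 and 8.70 in LIN28A 1 and 2, and the other read 8.70 and 1.20 in control, against 3.70 and 3.90 in LIN28A. The lines overlapped at both probe sets, and all 8 values lay under 16. The differences were -0.14 and -0.18 in numbers 1 and 2 at the first and -0.33 and 0.21 at the other. Gad2, which encodes the second enzyme of GABA synthesis, was not tested either, at 6.10 and 5.90 in control, against 2.70 and 3.40 in LIN28A. Its LIN28A arrays lay below both control arrays, by -0.24 and -0.17 in the 2 numbers, with all 4 values under the limit of the filter. At this brightness the level of either enzyme gene cannot be told from background.

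Slc17a6, the vesicular glutamate transporter gene, had no common direction. Its brighter probe set read 28.7 and 23.3 in control 1 and 2 but 0.800 in LIN28A 1 and 65.7 in LIN28A 2, so the LIN28A arrays were the lowest and the highest of the 4. The difference was -1.41 in number 1 and 1.06 in number 2, with a mean of -0.18 ± 0.72 (SE, 2 arrays per group; limma adjusted p = 1.0). That mean is decided by single arrays, at 0.96 without LIN28A 1 and -1.32 without LIN28A 2. The dimmer probe set read 7.50 and 11.7 in control, against 0.500 and 9.90 in LIN28A, all under 16, with differences of -0.51 and -0.10.

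The fusion machinery read lower in LIN28A cells at Snap25, but the arrays overlapped across numbers. Snap25 read 76.6 and 223.5 in control 1 and 2 and 31.2 and 114.9 in LIN28A 1 and 2. Within each line number 2 was the higher array, so LIN28A 2 lay above control 1. The log2 difference was -0.97 in number 1 and -0.87 in number 2, or -0.92 ± 0.65 (SE, 2 arrays per group; limma adjusted p = 1.0), and the number difference, 1.37 in control and 1.47 in LIN28A cells, was larger than either. The SE includes that number difference, and with the number as a block in the fit the SE was 0.21 (limma adjusted p = 0.44). Without 1 array the number difference enters the estimate too, and the value ran from -1.66 without LIN28A 2 to -0.19 without LIN28A 1.

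Syt1 was dim and rested on 1 array. Its leading probe set read 6.90 and 27.3 in control 1 and 2 and 4.50 and 9.70 in LIN28A 1 and 2, and the other read 4.90 and 21.3 in control, against 0.600 and 5.30 in LIN28A. Control 2 was the only array above 16 at both. The differences were -0.16 and -0.75 in numbers 1 and 2 at the first and -0.33 and -0.81 at the other, which was not tested. Without control 2 the first was 0.0033.

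Syp was the member whose 2 arrays of a line lay closest. It read 70.1 and 67.3 in control, against 44.6 and 44.1 in LIN28A 1 and 2, that is 68.7 ± 1.98 against 44.4 ± 0.354 (SD, n = 2), with no overlap. The log2 difference was -0.51 in number 1 and -0.47 in number 2, or -0.49 ± 0.27 (SE; limma adjusted p = 1.0). This SE comes mainly from the spread of all probe sets, which limma shares between them. The second Syp probe set, of a type that can match other transcripts, read 12 and 1.1 in control, against 0.700 and 8.70 in LIN28A, all under 16, with differences of -0.75 and 0.53.

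Gamma-synuclein stood among the lowest differences on the arrays. Sncg read 94.4 and 113 in control 1 and 2 and 11.1 and 24.0 in LIN28A 1 and 2. Every LIN28A value lay below every control value, and control was 4.72 times LIN28A in number 2; no ratio is given for number 1, where LIN28A lay under 16. The log2 difference was -2.03 and -1.69 in numbers 1 and 2. Counted from the lowest, it ranked 8 of the 15838 probe sets tested, and 20 and 79 within numbers 1 and 2. The other synucleins did not share this: Sncb read 31.6 and 21.1 in control, against 14.1 and 39.7 in LIN28A, with differences of -0.66 and 0.59.

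The NSG genes, which encode related endosomal proteins, differed in size. Nsg2 read 196 and 277 in control 1 and 2 and 35.6 and 68.2 in LIN28A 1 and 2. The LIN28A arrays lay below both control arrays, and control was 5.51 and 4.06 times LIN28A in numbers 1 and 2. The log2 difference was -2.04 and -1.80 in the 2 numbers, and it ranked 5 of 15838 from the lowest, and 17 and 59 within numbers 1 and 2. Nsg1 read 196 and 290 in control, against 110 and 199 in LIN28A at its brighter probe set, so LIN28A 2 lay just above control 1. Its differences were -0.75 and -0.51, or -0.63 ± 0.39 (SE, 2 arrays per group; limma adjusted p = 1.0). The dimmer Nsg1 probe set read 25.7 and 13.3 in control, against 10.1 and 4.10 in LIN28A, without overlap, at -0.68 and -0.54. In control cells the brighter Nsg1 probe set and Nsg2 stood at nearly the same rank among all probe sets, the 78.9th and 79.0th percentile in control 1 and the 83.0th and 82.3rd in control 2. In LIN28A cells Nsg1 stood at the 69.5th and 76.6th percentile and Nsg2 at the 52.6th and 58.5th. The difference between the genes was not tested.

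Scg3, the dense core granule gene, differed mainly in number 1. It read 142 and 234 in control 1 and 2 and 62.2 and 206 in LIN28A 1 and 2. Within number 2 the arrays were close, and LIN28A 2 lay above control 1. The differences were -1.02 and -0.17, or -0.59 ± 0.55 (SE, 2 arrays per group; limma adjusted p = 1.0), and the value was 0.16 without LIN28A 1.

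Over the members, limma called 0 of the 10 tested probe sets at an adjusted p under 0.05, as it called 0% of all probe sets in each direction. At an unadjusted p under 0.05, 3 were lower (Slc32a1, Sncg and Nsg2) against 1.21% of all, and 0 were higher against 0.442%. The filter favours such a value at Slc32a1, which passed only through its control arrays; of the 7 probe sets at or above the limit in each group, 2 were lower (Sncg and Nsg2), against 0.976% of all such probe sets. All 10 lay below 0 in number 1, against 58.8% of all probe sets tested, and 9 of 10 did in number 2, against 50.1%, with Slc17a6 the exception. Lower in both numbers were therefore 9 of 10, against 33.3% of all, and higher in both were 0, against 24.2%. Both LIN28A arrays lay below both control arrays for 5 of 10 (Slc32a1, Syp, Sncg, the dimmer Nsg1 probe set and Nsg2) against 15.5% of all, and above them for 0 against 10%. Among the 7 at or above the limit in each group it held for 3 (Syp, Sncg and Nsg2), against 14.1%, and 6 were lower in both numbers, against 31.7%. With no filter, 12 of all 16 member probe sets were lower in both numbers, against 34.6% of all 22626, and 5 of 16 had no overlap, against 18%. Sncg and Nsg2 were under -1 in both numbers, which held for 0.309% of all probe sets tested. The 6 untested probe sets all lay below 0 in number 1, and 3 of them did in number 2. The members were chosen with earlier results of these data known, so the counts above are not independent support. Bulk RNA cannot tell fewer neurons from less of a transcript per neuron.

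**Figure D2:**
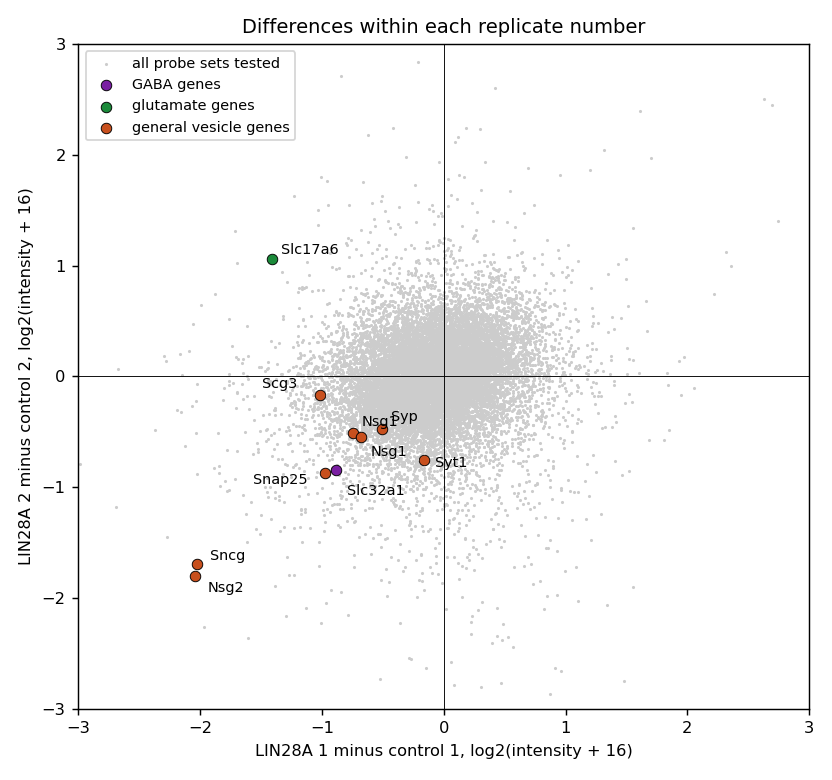
LIN28A minus control on the log2(intensity + 16) scale within number 1 (x axis) and within number 2 (y axis) for the 10 tested member probe sets (coloured by role and named) and all 15838 probe sets tested (grey, 8 of them outside the axes). Sncg and Nsg2 lie near -2 on the x axis and between -1.69 and -1.80 on the y axis, and Slc17a6 lies in the quadrant of opposite directions.

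GABA genes did not separate from general vesicle genes in a stable way. With each gene represented by its brightest probe set, the median log2 difference was -0.51 for the 2 GABA genes (-0.51 in each number), and -0.63 for the 7 general vesicle genes (-0.97 in number 1 and -0.75 in number 2). The single glutamate gene was at -0.18 (-1.41 and 1.06), and all probe sets tested had a median of -0.05. The GABA median lay 0.12 above the general vesicle median, 0.46 in number 1 and 0.24 in number 2. With a pseudocount of 1 it lay below, at -0.51, since both GABA genes are dim and the pseudocount of 16 damps them most. It also turned to -0.07 without control 2 and -0.14 without LIN28A 1. Against the glutamate gene, the GABA median lay 0.90 above in number 1 and 1.56 below in number 2, which the values of LIN28A 1 and LIN28A 2 for Slc17a6 decide. A median of 2 genes, of which only Slc32a1 was tested, describes little more than Slc32a1.

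**Figure D3:**
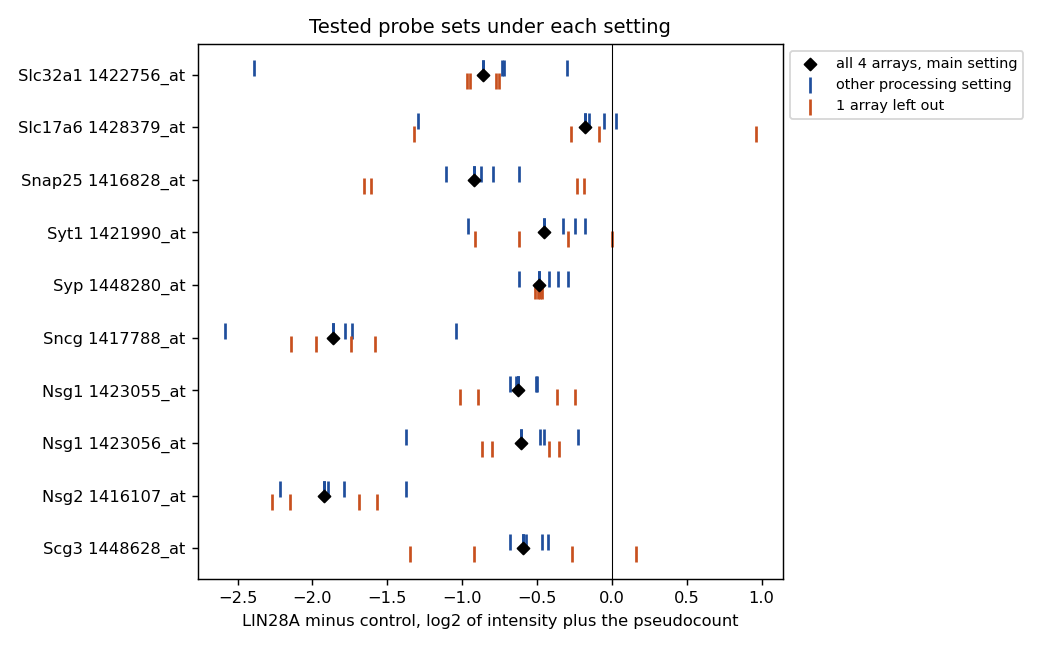
Log2 difference of LIN28A minus control for the 10 tested member probe sets with all arrays (diamond), under other processing settings (blue ticks) and with 1 array left out (orange ticks), where the scale is log2 of intensity plus the pseudocount. Syp, Sncg, Nsg2, Snap25, Slc32a1 and both Nsg1 probe sets stay below 0 at every tick, and Slc17a6, Scg3 and Syt1 do not. For Syp, Sncg, Nsg2, Slc32a1 and the dimmer Nsg1 probe set, both LIN28A arrays lay below both control arrays. Leaving out an array or changing the pseudocount could therefore not turn the sign of these. The filters, the block and the eBayes trend leave every value as it was.

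Neuronal markers read lower along with the members. Of 15 tested neuronal markers of 16 listed, all lay below 0 (within numbers 1 and 2, 58.8% and 50.1% of all probe sets tested did). In both numbers 12 were lower, and 4 had both LIN28A arrays below both control arrays (against 33.3% and 15.5% of all). The median was -0.46 (-0.61 in number 1 and -0.51 in number 2), and it was -0.07 without LIN28A 1 and -0.11 without control 2. These markers too were listed with earlier results of these data known. Their summed intensity over all 16 was between 5962 and 9298 in the control arrays and between 3415 and 6843 in the LIN28A arrays, and no marker was listed at 0 in any array. The share of this in the members' differences was not tested. Slc32a1, Snap25, Sncg and Nsg2 lay below the neuronal median in both numbers, and the other 6 genes did not. The 4 markers without overlap were the tau gene Mapt (232 and 182 in control, 61.0 and 36.5 in LIN28A), the RNA-binding protein gene Elavl4, and the stathmin genes Stmn2 and Stmn3, at -1.80, -0.98, -1.18 and -0.53. At every other tested probe set of these 4 genes the lines overlapped, with differences of -1.19 and -0.35 for Mapt, -0.57 and -0.64 for Elavl4, -1.0 for Stmn2 and -0.26 for Stmn3. Tubb3, the neuronal beta-tubulin gene, had 508 and 540 in the control arrays against 372 and 644, so at this marker the lines overlapped.

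Markers of other cells differed in direction between the 2 numbers, except for the fibroblast and the endocrine list. Pou5f1, the Oct4 gene of embryonal carcinoma cells, read 30.3 and 374 in control 1 and 2 and 28.7 and 775 in LIN28A 1 and 2. Its level therefore went with the number more than with the line. Of the other listed genes of these cells, only Esrrb (15.6 and 18.5) was also higher in control 2 than in control 1. Lefty1 read 124 and 46.1 there, and Fgf4 30.9 and 14.1. The 10 neural progenitor markers had a median of 0.06 (0.41 and -0.46 in numbers 1 and 2), with Hes5, a Notch target, at 186 and 194 in control, against 924 and 337 in LIN28A, and Sox2 at -0.34. The 8 tested markers of pluripotent and embryonal carcinoma cells had a median of -0.06 (-0.51 and 0.87); Lefty1, Utf1, Fgf4 and Esrrb differed by 0.97, 0.65, -0.38 and -0.23. The 6 tested fibroblast and smooth muscle markers had a median of 0.41 (0.03 and 0.79), with Col3a1 at 1.52, Acta2 at 0.91 and Lox at -1.0. The 5 tested endoderm markers had a median of 0.25 (-0.28 and 0.77), with Lamb1 at 1.26 and Sox7 at -0.62. The 3 tested markers of astrocytes and oligodendrocytes had a median of -0.42 (-0.65 and 0.12). Of 8 endocrine markers on the array 2 were tested, the hormone genes Sst (83.6 and 30 in control, 16.1 and 16.5 in LIN28A) and Pomc, at -1.07 and -0.43. Summed intensities in the control arrays, and then in the LIN28A arrays, ran from 4192 to 6094 and from 4372 to 5130 for progenitors, from 367 to 501 and from 242 to 1151 for pluripotent cells, and from 669 to 681 and from 724 to 868 for fibroblasts. They ran from 340 to 478 and from 292 to 689 for endoderm, from 256 to 279 and from 126 to 249 for glia, and from 66.5 to 152 and from 37.9 to 54.6 for endocrine cells. No marker of these lists was listed at 0, and what part they had in the members' differences was not tested.

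Genes of the same steps in transmission were taken from lists, which include the members, each gene by its brightest tested probe set. These lists were chosen with earlier results of these data known. The shares to set beside the counts below are those over all probe sets tested, 33.3% lower and 24.2% higher in both numbers, and 15.5% below without overlap. No share is given for a mean difference below 0. The median of all probe sets tested was -0.05, and 58.8% and 50.1% lay below 0 within numbers 1 and 2. None of their genes passed limma's adjusted threshold (0 higher and 0 lower in every list), so directions are counts of values. In the dense core granule list all 12 tested genes lay below 0, 9 were lower in both numbers and 4 had no overlap, with a median of -0.51 (-0.90 in number 1 and -0.20 in number 2, and -0.03 without LIN28A 1). Without Scg3 8 of 11 were lower in both numbers and the median was -0.43. Those 4 were Cadps and Cadps2, which prime granules for release, the granin gene Chgb and the chaperone gene Scg5. Cadps read 252 and 509 in control, against 81.6 and 239 in LIN28A, at -1.45 and -1.04 in the 2 numbers. Scg5 read 265 and 251 in control, against 126 and 169 in LIN28A, and Cpe, the carboxypeptidase that trims prohormones, read 1389 and 1610 in control, against 785 and 1564 in LIN28A.

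The synaptic vesicle membrane list was mixed. Of 15 tested genes, 11 lay below 0, 8 were lower in both numbers and 7 had both LIN28A arrays below both control arrays, with a median of -0.23 (-0.51 and -0.13). Without Sncg and Syp these counts were 9, 6 and 5 of 13, and the median was -0.20 (-0.48 and 0.13). Besides Sncg and Syp, the synaptophysin-like gene Sypl had 673 and 502 in the control arrays against 343 and 365, though a dim probe set of it differed by 0.02. Rab3b, a vesicle GTPase gene, had 50.2 and 39.1 in the control arrays against 18.1 and 27.6. Syn1, the synapsin gene, had 17.8 and 75.0 in the control arrays against 16.1 and 83.7, so it followed the number and not the line.

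Among the synaptotagmins, 7 were tested and 4 lay below 0 in both numbers. The median of -0.46 (-0.20 and -0.60) is the value of Syt1 itself; without Syt1 3 of 6 were lower in both numbers and the median was -0.23 (-0.20 and -0.26). With no filter, which adds dim genes of the family, the median was -0.05 with Syt1 and -0.01 without it. Syt11 read 288 and 246 in control, against 161 and 127 in LIN28A at its leading probe set, and its other probe sets differed by -0.77 and -0.62. Syt4 read 39.2 and 40.3 in control, against 13.5 and 21.1 in LIN28A. Syt17 differed by -0.50, and Syt7 by 0.30 from values under 16.

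The neuronal SNARE list, Snap25 included, had no common direction. Of 9 tested, 4 were lower and 3 higher in both numbers, with a median of -0.07 (-0.37 and 0.10) that was 0.04 under quantile normalization and 0.06 under median centring. Vamp2, the SNARE protein of the vesicle side, read 130 and 125 in control, against 72.2 and 75.2 in LIN28A, with no overlap, although a dimmer probe set differed by -0.18. Doc2a, a calcium sensor gene, had 18 and 13.1 in the control arrays against 19.2 and 52.2. Of 23 SNARE genes that all cells use, 8 were lower and 6 higher in both numbers, close to the shares over all probe sets, with a median of -0.04 (0.09 under median centring). Vamp7, Stxbp2, Snap47 and Stx4a, the 4 named by size, differed by -0.80, -0.63, -0.40 and 0.39.

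The 2 tested genes of glutamate supply other than Slc17a6 lay above 0. Glul, which makes glutamine, read 327 and 261 in control, against 357 and 394 in LIN28A, and the glial and progenitor glutamate transporter gene Slc1a3 read 90.1 and 88.9 against 107 and 100. Other probe sets of these genes differed by 0.15 (Glul) and by 0.24 and -0.02 (Slc1a3), and the list median over 3 genes was 0.18. On the GABA side 2 genes were tested, Slc32a1 and Abat, the GABA breakdown enzyme, which read 139 and 338 in control, against 68.4 and 419 in LIN28A.

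**Figure D4:**
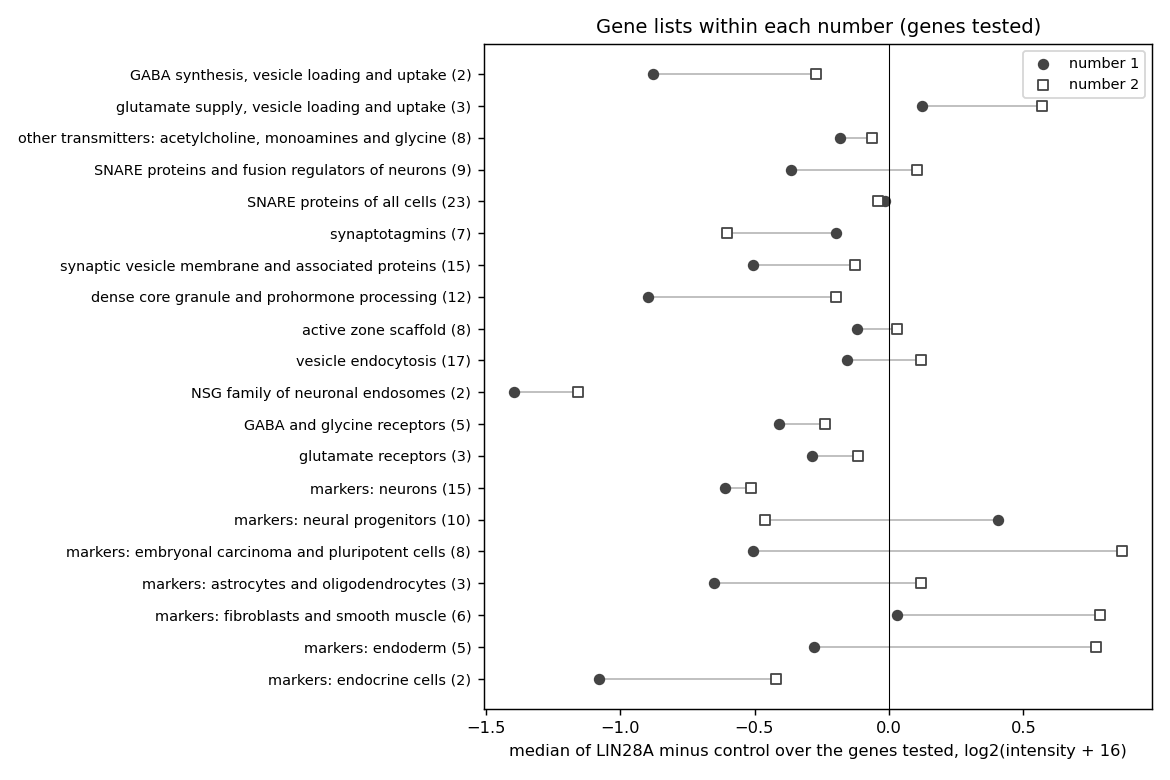
Median of LIN28A minus control over the tested genes of each list (number of genes in parentheses) within number 1 (filled circles) and number 2 (open squares), on the log2(intensity + 16) scale. The NSG genes, neuronal markers and synaptotagmins are among the lists below 0 in both numbers, and SNARE genes of all cells lie close to 0.

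The genes whose pattern over the 4 arrays was closest to the mean pattern of the members were Pcdhb3, Lmbrd1, Nkain4, Cep112 and Pcdhb17. Closeness is the root mean square distance between log2 values after each gene's own mean was removed, and it ran from 0.045 to 0.056. Pcdhb3 and Pcdhb17 are protocadherins of the beta cluster, which are neural adhesion proteins. Pcdhb3 read 54.9 and 80.6 in control, against 22.7 and 48.6 in LIN28A, at -0.87 and -0.58 in the 2 numbers. Over 4 arrays many genes can share such a pattern, and the list is a description.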

How the data were processed

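RNA of 2 control and 2 LIN28A samples was hybridised to 1-colour Affymetrix arrays after oligo(dT) priming and in vitro transcription, per the labels' protocols. The authors deposited linear intensity values per probe set, summarised by software that no label names. With 2% cut from each end the mean was 150.1 in every array, so no further scaling was done. After 64 control probe sets were left out, 20380 of 22626 probe sets carried 1 gene symbol, 691 several and 1555 had no entry and are unnamed. Of the 22626, 15838 passed the filter and were fitted on log2(intensity + 16) by limma 3.58.1 (R 4.3.3, lmFit and eBayes, no block). Benjamini-Hochberg adjustment was over all of them. The fit was also run on simulated data, with changes larger than those of the members. That run does not show whether changes of the members' size can be found. With 2 arrays against 2, an exact permutation test cannot go below p = 0.333, so none is given. The number of arrays limits the precision.

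The members and lists were chosen with earlier results of these data known. Named were all members, up to 4 genes of each list with the largest difference and no overlap of the lines, and the 5 most similar genes; Gad2, Abat, Sncb, Syn1, Cpe, Tubb3 and Pou5f1 were added after their values were seen. Alternatives were pseudocounts of 1 and 64, filters (none, 50th percentile), quantile normalization, median centring, the replicate block, eBayes trend, averaged probe sets and leaving out each array.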

Additional observations from a re-analysis of the deposited data

How the results depend on the processing

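No member passed an adjusted p of 0.05 under any setting run. The replicate block called 1 probe set higher and 0 lower, against 0 and 0 without it, and neither without nor with it was a member called (the lowest member adjusted p was 0.19 with the block, for Nsg2 and Sncg). The 2 numbers are shared only by label; deviations from the group means correlated between arrays of one number (r = 0.62 over all probe sets tested). At an unadjusted p under 0.05 the block gave 468 higher (2.95%) and 890 lower (5.62%), against 70 and 192 without it. Of the 10 tested member probe sets it gave 6, all lower, against 3. Those 6 include Slc32a1 and the dimmer Nsg1 probe set, which passed the filter only through their control arrays. Nsg1 counts among them with both of its probe sets. Median centring moved all differences by 0.13 and gave 167 higher and 107 lower. No filter gave 158 and 362, the 50th percentile 51 and 89, pseudocount 1 gave 61 and 305, pseudocount 64 gave 145 and 177, and quantile normalization 122 and 168; without 1 array there were 80 to 133 higher and 148 to 317 lower. The sign turned for Slc17a6 with pseudocount 64 (0.027) and without LIN28A 1 (0.96, with -1.32 to 0.96 without 1 array), for Syt1 without control 2 (0.0033, with -0.92 to 0.0033 without 1 array), and for Scg3 without LIN28A 1 (0.16, with -1.35 to 0.16 without 1 array).

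The GABA median of -0.51 was -1.47 with pseudocount 1, -0.17 with pseudocount 64, -0.38 with quantile normalization and -0.38 with median centring, and -0.58 to -0.44 without 1 array. The general vesicle median was -1.35 to -0.29 without 1 array, and the glutamate value -1.32 to 0.96. The GABA minus general vesicle difference was -0.51 with pseudocount 1, and -0.14 to 0.76 without 1 array. Fits without 1 array let the number difference in; other causes were not tested. The filters, the block and the eBayes trend cannot change the medians of the GABA, glutamate and general vesicle genes. The filters can change list medians, as for the synaptotagmins, at -0.46 and at -0.05 with no filter. Of the 20 list medians, 10 turned sign under some setting, 3 of these only when an array was left out; the vesicle membrane, granule, synaptotagmin, NSG, GABA and neuronal marker lists did not.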

Other observations

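Of 11 GABA and glycine receptor genes on the array (18 listed) 5 were tested, with a median of -0.30 and 3 lower in both numbers. Gabrg1, a GABA-A receptor subunit gene, had 33.9 and 35.2 in the control arrays against 18.5 and 17.8. Of 13 glutamate receptor genes on the array 3 were tested, with a median of -0.20. The 17 tested endocytosis genes had a median of -0.01 (-0.16 and 0.12 in the 2 numbers; 0.11 under median centring), and 0 of them had lines without overlap. The 8 tested active zone genes had a median of -0.11 (0.02 under median centring), with Apba2 at -0.43 and Ppfia4 at -0.24. Among genes of other transmitters 8 were tested, with a median of -0.20 (0.09 under quantile normalization); Th, the dopamine synthesis enzyme gene, had 21.9 and 9.80 in the control arrays against 0.600 and 6.30, Maoa differed by 0.37 and Slc18a1 by -0.12.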
